A study of Mus musculus with 6 samples.

Results

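The mitochondrial ribosomal proteins are encoded by the Mrpl genes of the large (39S) and the Mrps genes of the small (28S) subunit of the mitochondrial ribosome. All genes whose symbol starts with Mrpl or Mrps followed by a digit were taken, which gave 77 of the 13273 genes in the deposited table, 48 Mrpl and 29 Mrps genes. Liver RNA from 3 ethanol-fed wild type (ETOH-WT) and 3 pair-fed wild type (PF-WT) mice was compared, with 1 library per mouse. All 6 mice were C57Bl/6 females, 2 months old when the Lieber–DeCarli liquid diet began. The mice drank it for 3 weeks, and the first 3 days were without ETOH for all of them. For the ETOH-WT mice the diet was then stepped up to an ETOH content of 6.4% v/v. The PF-WT mice drank the isocaloric diet without ETOH, and the livers were taken on day 21. The mice carry a code that all 3 mice of a diet share, so that anything this code marks cannot be told apart from the diet.

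Mitochondrial ribosomes translate only the few proteins encoded by mitochondrial DNA, all of them membrane subunits of the respiratory chain and the ATP synthase. Their RNA components come from mitochondrial DNA, whereas all of their proteins are encoded in the nucleus, made on cytosolic ribosomes and imported. Each subunit combines proteins inherited from the bacterial ancestor with proteins found only in mitochondria. The liver is rich in mitochondria, and chronic ETOH feeding is known to affect hepatic mitochondrial translation in rats.

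Values were taken as FPKM, in which fragment numbers are divided by the length of the transcript and by sequencing depth. The unit was judged by the values and the scaling is unknown. Comparisons of levels between genes and between livers rest on this reading. Depth is unknown, since FPKM keep no fragment counts. The FPKM summed to 570652 to 625003 in the ETOH-WT livers and to 567808 to 577297 in the PF-WT livers. ETOH-WT mouse 1 stood apart, with the highest sum and with no gene listed at 0, against 86 to 163 such genes in the other livers. Of 7 hepatocyte markers, all were detected, with summed FPKM of 62424 to 67905 in ETOH-WT livers and 71259 to 79735 in PF-WT livers. Of the 7, Hnf4a was called higher and Tat lower, where called means a limma adjusted p under 0.05 throughout. No tested marker was called among those of Kupffer, stellate, endothelial, biliary, lymphoid, neutrophil and erythroid cells. Of 5 markers each, 3 biliary, 2 lymphoid and 3 neutrophil ones were tested. The summed biliary markers did not overlap, with 21.7 to 29.2 FPKM in ETOH-WT livers and 31.8 to 38.8 FPKM in PF-WT livers. Most of that sum was Spp1, with 27.2, 20.1 and 20.4 FPKM in ETOH-WT livers against 29.4, 35.6 and 31.1 FPKM in PF-WT livers. The next, Krt19, averaged 0.784 FPKM over the 6 livers. Krt19, Epcam and Sox9 overlapped between the diets, while Krt7, at 0.285 FPKM, did not. The sums of the other types apart from hepatocytes overlapped between the diets. Whether the cell makeup contributes to any result here was not tested, and in whole liver fewer cells of a type and less RNA per cell cannot be told apart.

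Several promoters of these genes carry binding motifs of the factors NRF1, GABP and YY1, which are known to act on nuclear genes for mitochondrial proteins. RefSeq promoter windows (GRCm38.p6, 250 bases before to 50 after the start site) matched 68 of the 77 genes, with 74 windows, and both strands were searched. The letters CCGGAAG, a core bound by GABP and other ETS factors, were found in 25 windows (33.8%, against 8.86% of all 32851 promoter windows of this length). The YY1 letters AAGATGG were found in 13 windows (17.6%, against 6.34%), and the NRF1 core GCATGCG in 8 windows (10.8%, against 3.58%). At least 1 of these motifs was present for 37 genes, and all 3 for 0 genes. The background is every such promoter window, not only those of genes in the deposited table, so it is not matched for expression in liver. A match describes the letters only and does not show that a factor binds. The 4 sequences below show the 100 bases before the RefSeq start site, 5′ to 3′ on the strand of the gene, with matches in capitals. They were chosen after the values were seen, to show each motif within these 100 bases. Many YY1 matches lay after the start site instead, such as that of Mrpl37 at position 26, and are not shown. Mrpl52 (chr14:54426809-54426908, plus strand) is the most abundant transcript. Described below are Mrpl17 (chr7:105811088-105811187, minus strand), Mrpl27 (chr11:94653691-94653790, plus strand) and Mrpl36 (chr13:73330909-73331008, plus strand).
Mrpl52: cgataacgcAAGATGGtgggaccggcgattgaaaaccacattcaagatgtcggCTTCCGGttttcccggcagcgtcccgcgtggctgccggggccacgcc
Mrpl17: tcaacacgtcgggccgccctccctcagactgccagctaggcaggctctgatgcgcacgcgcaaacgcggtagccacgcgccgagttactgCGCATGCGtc
Mrpl27: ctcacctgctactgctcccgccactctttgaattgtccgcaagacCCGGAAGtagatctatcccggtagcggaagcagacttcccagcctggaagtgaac
Mrpl36: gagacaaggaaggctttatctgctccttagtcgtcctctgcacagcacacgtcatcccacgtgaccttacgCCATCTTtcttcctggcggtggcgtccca
In the Mrpl52 sequence the capitals mark the YY1 letters and, further on, the GABP core as its reverse complement CTTCCGG. For Mrpl17 they mark a palindrome that holds the NRF1 core on both strands, for Mrpl27 the GABP core, and for Mrpl36 the YY1 letters as the reverse complement CCATCTT. The coordinates of the table place the starts of Mrpl17 and Mrpl27 slightly upstream of the RefSeq ones, within the last bases shown.

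In whole liver, the 77 transcripts were of moderate to high abundance. Their mean over the 6 livers ran between 4.35 and 129 FPKM, a 29.7-fold range, with a median of 28.0 FPKM (quartiles 18.0 and 40.4), against a median of 7.44 FPKM for all genes tested. The mean of 75 of the 77 exceeded that general median. Mrpl52, a mitochondria-specific protein of the large subunit, was the most abundant, with 114, 136 and 123 FPKM in ETOH-WT livers against 134, 134 and 135 FPKM in PF-WT livers. The ranges overlap, and the log2 fold change of -0.11 (standard error 0.09) did not pass the test. Mrpl12, whose protein forms the flexible stalk that recruits translation factors, came next with 85.1, 95.3 and 87.9 FPKM in ETOH-WT livers against 79.6, 82.8 and 84.0 FPKM in PF-WT livers. All 3 ETOH-WT values lay above all 3 PF-WT values, by a small margin, and the adjusted p from limma was 0.417. Mrpl14 (82.1 FPKM over the 6 livers), Mrpl30 (73.4 FPKM) and Mrpl42 (72.3 FPKM) followed. Mrpl12 and Mrpl14 could not be ordered beyond their spread between livers, nor could Mrpl30 and Mrpl42.

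At the low end were Mrps33 with 8.84 FPKM, Mrpl47 with 6.07 FPKM and Mrpl19 with 4.35 FPKM over the 6 livers. Mrpl19, a large-subunit protein of bacterial origin, had 2.52, 6.28 and 2.81 FPKM in ETOH-WT livers against 5.85, 2.78 and 5.88 FPKM in PF-WT livers. Both groups held values near 2.5 to 2.8 and near 6 FPKM, so Mrpl19 was the least reproducible of the genes, and its 95% interval for the log2 fold change ran from -1.03 to 0.46. The order of the levels was otherwise alike in all livers. Spearman's rho between the levels in any pair of livers was 0.974 to 0.991 over the 77 genes (15 pairs), a description across genes, which share the library and are not independent replicates.

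The comparison of the ETOH and PF diets asks whether the ETOH diet alters the transcripts of the mitochondrial translation machinery. None of the 77 genes differed between ETOH-WT and PF-WT livers at an adjusted p under 0.05, with limma on log2(FPKM + 1) and Benjamini–Hochberg adjustment over the 11346 genes tested (two-sided). All 77 passed the filter on low values, a mean of at least 0.5 FPKM. The count was 0 higher and 0 lower, against 3.97% of all genes tested called higher, 2.67% called lower and 6.64% called in either direction. The smallest adjusted p among the 77 was 0.0963, for Mrpl28. At an unadjusted p under 0.05, 7 genes were higher and 6 were lower in ETOH-WT livers, 13 in all (16.9%). The background at that level was 14.4% of all genes higher, 9.33% lower and 23.7% in either direction, so the share among the 77 did not exceed it. For 12 genes (15.6%) all 3 ETOH-WT livers lay above all 3 PF-WT livers, against 17.9% of all genes tested, and for 8 genes (10.4%) all lay below, against 11.2%.

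The estimates were small and the intervals narrow. The log2 fold changes ran from -0.33 for Mrps28 to 0.37 for Mrpl23, with 41 positive and 36 negative. Their median was 0.02, as was that over all genes tested, and their median size was 0.10 against 0.15 for all genes tested. The sign of the median was not stable, at -0.012 under median-ratio scaling, -0.025 under quantile normalization, -0.049 without ETOH-WT mouse 2 and -0.002 without PF-WT mouse 2, with 33, 29, 26 and 37 positive estimates in that order. The median standard error was 0.10 for the 77 and 0.12 for all genes tested, and the median coefficient of variation within a diet was 7.52% against 11.2%. All 77 estimates lay within 1.5-fold, and 67 lay within 1.2-fold (87.0%, against 72.4% of all genes tested). The 95% interval from limma stayed within 1.5-fold for 72 genes (93.5%, against 73.2%) and within 2-fold for 76 (98.7%, against 93.7%). The 5 genes whose interval reached past 1.5-fold were Mrpl23 and Mrps21 on the higher side, and Mrps28, Mrpl47 and Mrpl19 on the lower side. A change past 2-fold was therefore outside the interval of every gene but Mrpl19. Changes past 1.2-fold remained within the interval of most genes, as only 16 intervals stayed within that size.

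**Figure D1:**
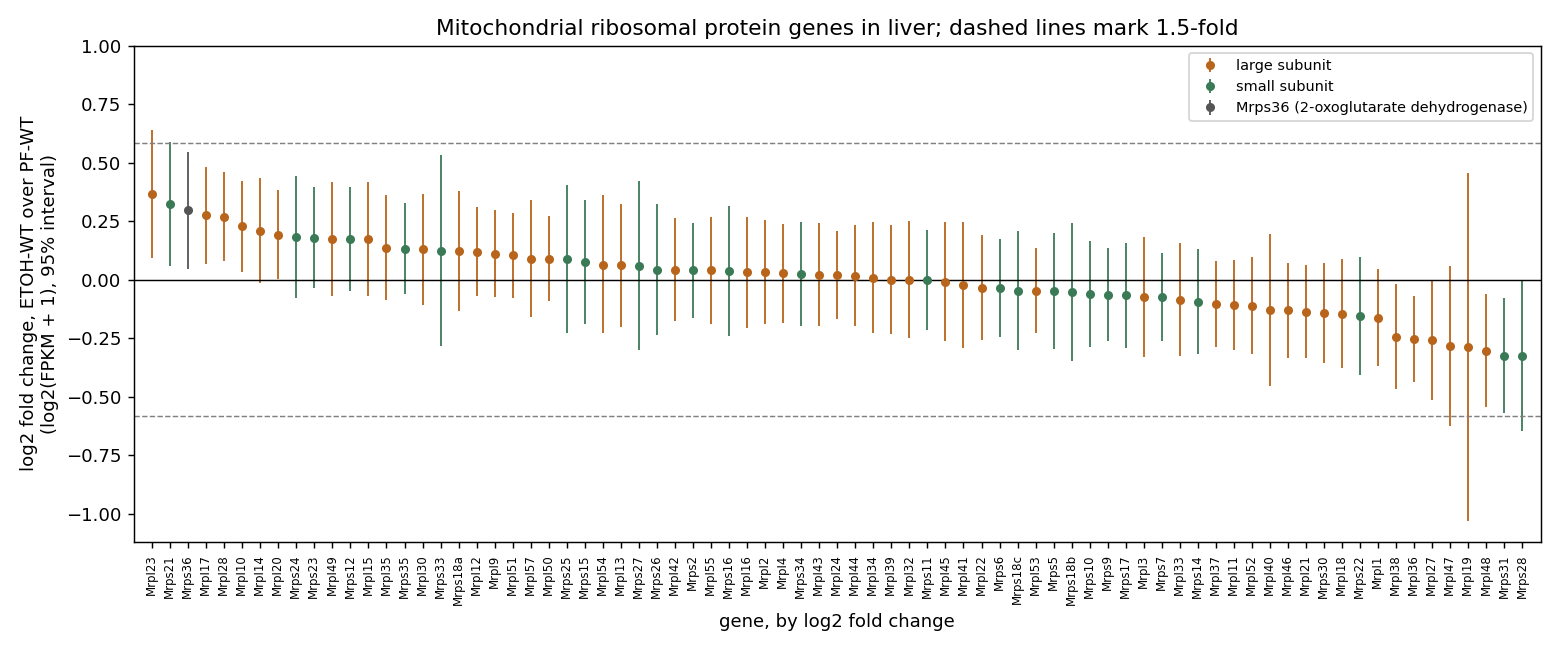
Log2 fold change of ETOH-WT over PF-WT livers on the log2(FPKM + 1) scale (y axis) for each of the 77 Mrpl and Mrps genes (x axis, ordered by fold change). Points are limma estimates and bars their 95% intervals (n = 3 livers each), coloured by subunit, and the dashed lines mark 1.5-fold. The points run between 0.37 and -0.33, both subunits are found along the whole range, and the widest interval is that of Mrpl19.

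The genes nearest to a difference are described next, and they were picked by an unadjusted p under 0.05 after their values were seen, so that their values are descriptions of single genes and no call. Mrpl28 (ENSMUSG00000024181, chromosome 17, 26123520 to 26126613 on GRCm38) encodes a large-subunit protein of bacterial origin and had 37.1, 37.8 and 33.4 FPKM in ETOH-WT livers, against 29.7, 30.2 and 29.4 FPKM in PF-WT livers. The groups did not overlap, the PF-WT livers lay close together, and the log2 fold change was 0.27 (standard error 0.08, limma adjusted p = 0.0963). Mrpl23 (ENSMUSG00000037772, chromosome 7, 142532686 to 142540747), at the exit of the tunnel through which the new peptide leaves the ribosome, had 12.8, 13.8 and 14.1 FPKM in ETOH-WT livers, against 9.52, 9.26 and 12.3 FPKM in PF-WT livers. PF-WT mouse 3 lay close to the ETOH-WT livers, and the adjusted p was 0.111 for a log2 fold change of 0.37 with a standard error of 0.12. Mrpl23 was called when PF-WT mouse 3 was left out (0.485, adjusted p = 0.0414), and also with that liver kept and weights per library (0.465, adjusted p = 0.0135). Mrpl17, also at the tunnel exit and with the NRF1 palindrome shown above, had 54.7, 60.2 and 64.4 FPKM in ETOH-WT livers, against 47.8, 48.1 and 51.4 FPKM in PF-WT livers, with no overlap (log2 fold change 0.28, adjusted p = 0.111). Of the other genes with the NRF1 core, Mrpl10 (0.23) and Mrpl9 (0.11) had positive estimates. Mrpl33 (-0.09), Mrps18b (-0.05), Mrpl22 (-0.03), Mrpl32 (-0.0003) and Mrpl39 (-0.0002) had negative ones. Whether the motif bears on the levels was not tested.

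The further higher estimates belonged to Mrpl10, Mrpl20, Mrps21 and Mrps36, each without overlap between the diets. Mrpl10, which anchors the stalk, had 39.2, 45.0 and 43.5 FPKM in ETOH-WT livers, against 36.2, 36.1 and 36.2 FPKM in PF-WT livers. The PF-WT values were nearly identical and the ETOH-WT values spread upward from them (log2 fold change 0.23, adjusted p = 0.151). Mrps21, a small-subunit protein of bacterial origin, had 60.3, 80.7 and 64.5 FPKM in ETOH-WT livers, against 53.8, 53.5 and 55.1 FPKM in PF-WT livers, and ETOH-WT mouse 2 stood far above the rest (log2 fold change 0.32, adjusted p = 0.14). Mrpl20, which binds ribosomal RNA, had 57.9, 59.8 and 58.3 FPKM in ETOH-WT livers, against 47.6, 52.4 and 53.9 FPKM in PF-WT livers (log2 fold change 0.19, adjusted p = 0.207).

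Mrps36 is named as a small-subunit gene, but its protein is known as a component of the 2-oxoglutarate dehydrogenase complex of the citric acid cycle. It had 11.4, 14.6 and 12.2 FPKM in ETOH-WT livers, against 10.6, 10.3 and 9.60 FPKM in PF-WT livers (adjusted p = 0.15 for a log2 fold change of 0.30). Mrps18a and Mrps30 also depart from their names, as their proteins sit in the large subunit. Mrps18a had 32.9, 41.0 and 36.2 FPKM in ETOH-WT livers, against 32.7, 30.9 and 37.2 FPKM in PF-WT livers, which overlap. Mrps30 had 12.2, 14.6 and 13.0 FPKM in ETOH-WT livers, against 14.6, 14.7 and 14.7 FPKM in PF-WT livers, with ETOH-WT mouse 2 just under the PF-WT livers (log2 fold change -0.14, adjusted p = 0.4).

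Among the lower estimates, Mrpl36 (ENSMUSG00000021607, chromosome 13, 73331009 to 73332175), a small zinc-binding protein of bacterial origin in the large subunit, had 25.4, 27.1 and 28.4 FPKM in ETOH-WT livers, against 32.3, 32.4 and 32.3 FPKM in PF-WT livers. The PF-WT livers were nearly identical and lay above all ETOH-WT livers (adjusted p = 0.103 for a log2 fold change of -0.25). Mrps31 (ENSMUSG00000031533, chromosome 8, 22411361 to 22429665), a mitochondria-specific protein in the head of the small subunit, had 17.0, 21.5 and 17.1 FPKM in ETOH-WT livers, against 23.5, 22.7 and 23.9 FPKM in PF-WT livers. ETOH-WT mice 1 and 3 were well below the PF-WT livers and ETOH-WT mouse 2 only just (log2 fold change -0.32, adjusted p = 0.113). Mrps28 (ENSMUSG00000040269, chromosome 3, 8802146 to 8923918), a small-subunit protein related to bacterial S1, had 25.6, 35.2 and 25.1 FPKM in ETOH-WT livers, against 36.2, 32.8 and 38.2 FPKM in PF-WT livers. ETOH-WT mouse 2 lay within the PF-WT range, and the adjusted p was 0.202 for a log2 fold change of -0.33. Without ETOH-WT mouse 2, Mrps28 (-0.48, adjusted p = 0.0362) and Mrps31 (-0.43, adjusted p = 0.0335) were called lower with limma, the only 2 genes of the 77 called in that setting.

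The remaining lower estimates, Mrpl48, Mrpl38 and Mrpl27, are all of the central protuberance, the crest of the large subunit that faces the small one and the transfer RNAs. Mrpl48 had 18.5, 21.1 and 17.3 FPKM in ETOH-WT livers, against 21.5, 23.9 and 25.5 FPKM in PF-WT livers, with no overlap (log2 fold change -0.30, adjusted p = 0.133). Mrpl38 had 34.9, 36.0 and 31.4 FPKM in ETOH-WT livers, against 44.7, 39.0 and 38.1 FPKM in PF-WT livers, also without overlap (log2 fold change -0.24, adjusted p = 0.179). Mrpl27, which reaches towards the peptidyl transferase centre and carries the GABP core shown above, had 37.6, 43.6 and 35.4 FPKM in ETOH-WT livers, against 42.4, 46.2 and 51.5 FPKM in PF-WT livers. Here ETOH-WT mouse 2 lay above PF-WT mouse 1 (log2 fold change -0.26, adjusted p = 0.204). The GABP core was also found for Mrpl48, and for Mrps21 and Mrpl17, whose estimates were higher.

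**Figure D2:**
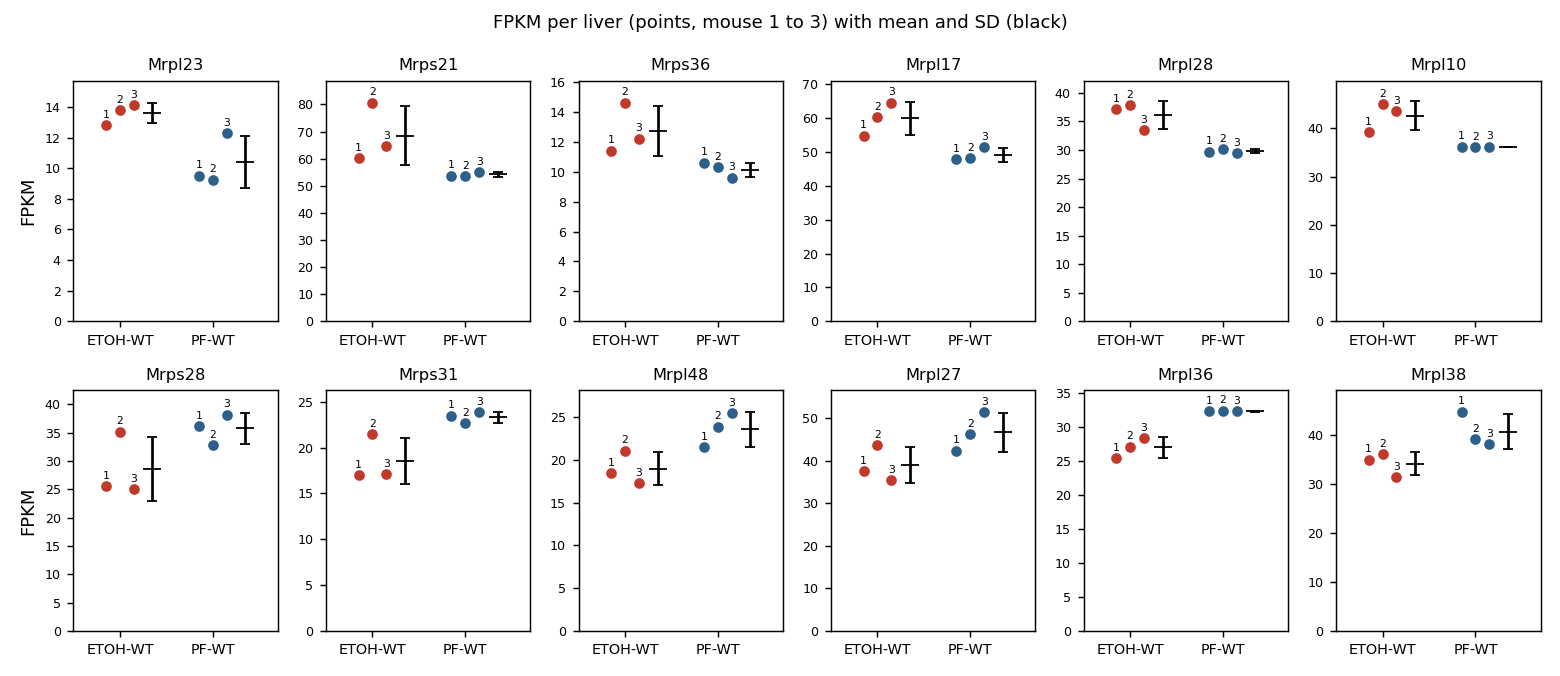
FPKM (y axis, from 0) in each liver for 12 of the 13 genes with an unadjusted p under 0.05, ETOH-WT on the left and PF-WT on the right of each panel. Points are single livers numbered by mouse and black bars show the mean and SD (n = 3). The upper row holds genes with higher and the lower row genes with lower ETOH-WT means, and ETOH-WT mouse 2 is the highest ETOH-WT liver in 9 of the 12 panels.

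Grouped by origin and place in the ribosome, no class held a called gene. Of 30 large-subunit genes of bacterial origin, 5 had a higher and 2 a lower estimate at an unadjusted p under 0.05, and the median log2 fold change was 0.03. Over all genes tested, 14.4% were higher and 9.33% lower at that level. Of 20 mitochondria-specific large-subunit genes the counts were 0 and 2, with a median of -0.005. The 16 small-subunit genes of bacterial origin gave 1 and 1 with a median of -0.04, and the 10 mitochondria-specific small-subunit genes 0 and 1 with a median of 0.05. The median over all genes tested was 0.02. Within the large subunit, the 5 stalk genes had a median of 0.065 and the 8 genes at the tunnel exit 0.01. Among the 8 central protuberance genes 7 estimates were negative, with a median of -0.14. Over all genes tested, 5209 of 11346 estimates were negative. The 8 genes of the small-subunit head had a median of -0.06. These places were assigned from general knowledge of the structure with earlier results known, and the differences between them were not tested.

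The summed level of the 77 genes differed little between the diets. It was 2362, 2730 and 2494 FPKM in ETOH-WT livers, against 2459, 2431 and 2536 FPKM in PF-WT livers, and the ETOH-WT livers spread on both sides of the PF-WT livers. The mean was 2529 ± 186 FPKM in ETOH-WT and 2475 ± 54.4 FPKM in PF-WT livers (SD, n = 3 each), a ratio of 1.02 that was smaller than the spread between livers. As a share of all FPKM, the 77 genes took 0.378%, 0.467% and 0.437% in ETOH-WT livers, against 0.430%, 0.428% and 0.439% in PF-WT livers. The ratio of the large-subunit to the small-subunit sum was 2.51, 2.33 and 2.48 in ETOH-WT livers, against 2.37, 2.46 and 2.46 in PF-WT livers. The balance of the subunits thus overlapped between the diets, with means of 2.44 ± 0.0964 in ETOH-WT and 2.43 ± 0.052 in PF-WT livers (SD, n = 3 each).

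The ETOH-WT livers differed among themselves more than the diets did. ETOH-WT mouse 2 had the highest value of the 3 ETOH-WT livers for 62 of the 77 genes (80.5%, against 38.7% of all genes tested) and the highest value of all 6 livers for 41. Among the 3 PF-WT livers, PF-WT mouse 3 was highest for 37 of the 77 genes (48.1%, against 24.8% of all genes tested). ETOH-WT mouse 1 had the lowest value of all 6 livers for 25. The median deviation from the gene's mean over the 6 livers, in log2(FPKM + 1), was -0.09, 0.12 and -0.02 in ETOH-WT mice 1, 2 and 3, against 0.01, -0.03 and 0.02 in PF-WT mice 1, 2 and 3. Over all genes tested the same median was 0.02 in both ETOH-WT mice 1 and 2, so the gap between these livers was not shared by genes in general. In PF-WT mice 1, 2 and 3 the median over all genes tested was 0.025, -0.005 and -0.066. In PF-WT mouse 3, too, the median of the 77 genes thus lay above that of genes in general. Summed levels of other genes of translation and respiration were also highest in ETOH-WT mouse 2. The summed FPKM of the nuclear genes of oxidative phosphorylation was 15170, 17464 and 15744 in ETOH-WT livers against 14199, 15460 and 16319 in PF-WT livers, and that of cytosolic ribosomal proteins was 19093, 24423 and 21729 against 17303, 17297 and 16669. Without ETOH-WT mouse 2 the median log2 fold change of the 77 genes was -0.05, and the cause of its higher values was not tested.

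**Figure D3:**
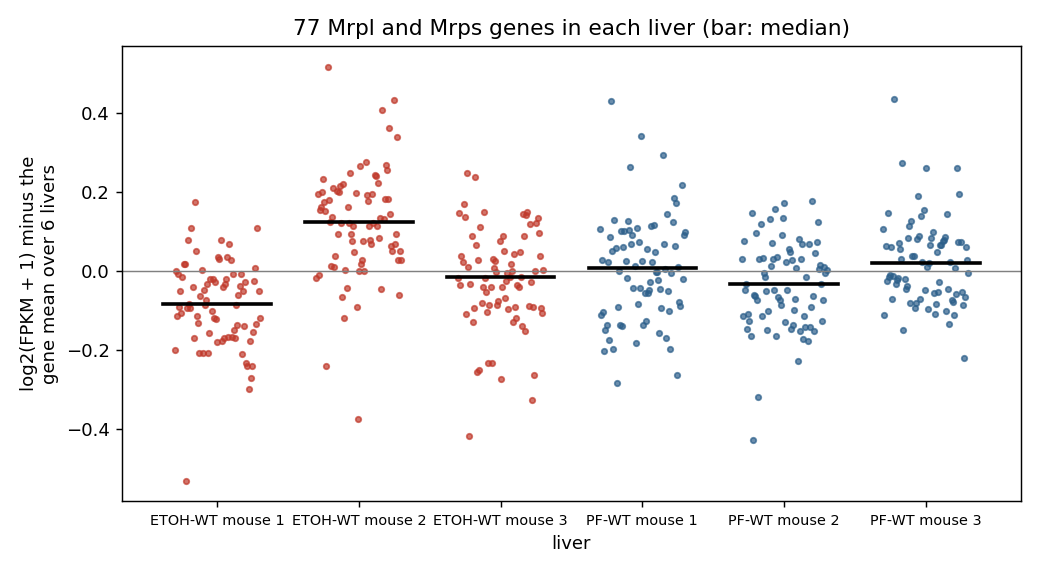
Deviation of log2(FPKM + 1) from the gene's mean over the 6 livers (y axis) for the 77 genes in each liver (x axis), ETOH-WT livers in red on the left and PF-WT livers in blue on the right. Each point is a gene and the black bar is the median, which lies at 0.12 in ETOH-WT mouse 2 and at -0.09 in ETOH-WT mouse 1, outside the range of the PF-WT livers, -0.03 to 0.02.

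Genes that work with the mitochondrial ribosome and other mitochondrial genes were looked at in 7 lists in the same fit. The background for these lists is the one given above, 14.4% of all genes tested higher and 9.33% lower at an unadjusted p under 0.05. Of 6 ribosomal proteins named otherwise, such as Dap3 and Ptcd3 of the small subunit and Ict1, a large-subunit protein that also releases stalled peptides, 0 were called and 0 had an unadjusted p under 0.05 (median log2 fold change 0.004). Of 20 translation factors 0 were called in limma, with 3 higher at an unadjusted p under 0.05 and a median of 0.01. Tufm, the mitochondrial elongation factor that brings transfer RNAs to the ribosome, had 36.9, 44.1 and 40.0 FPKM in ETOH-WT livers, against 35.7, 36.8 and 37.8 FPKM in PF-WT livers, and the ranges overlap (log2 fold change 0.13, adjusted p = 0.45). Lrpprc, which stabilises mitochondrial messenger RNAs, had a log2 fold change of -0.14 (adjusted p = 0.466). Of 27 assembly factors 0 were called, with 1 higher and 2 lower at an unadjusted p under 0.05 and a median of -0.05. These counts of 0 changed with weights per library, which called 3 translation factors higher and 1 assembly factor in each direction. Over all genes tested, the same weights called 11.7% higher and 8.33% lower. Quantile normalization called 1 assembly factor lower.

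Of 20 genes of mitochondrial DNA maintenance, transcription and RNA processing, 1 fell and 0 rose, with a median log2 fold change of -0.05. Weights per library called 3 lower and 1 higher, against 8.33% and 11.7% of all genes tested. The gene that fell was Polg2, the accessory subunit of the mitochondrial DNA polymerase, with 2.67, 2.56 and 2.71 FPKM in ETOH-WT livers, against 4.29, 4.59 and 5.71 FPKM in PF-WT livers. The groups were well apart for this low-level transcript (adjusted p = 0.0175 for a log2 fold change of -0.68, standard error 0.12). Tfam, which packages mitochondrial DNA and starts its transcription (0.18, adjusted p = 0.337), and Polrmt, the mitochondrial RNA polymerase (-0.11, adjusted p = 0.663), did not pass the test. Of 10 tested regulators of mitochondrial biogenesis 0 were called by limma, while 3 were higher at an unadjusted p under 0.05, namely Nrf1, Yy1 and Myc. Their median log2 fold change was 0.166 with 9 of the 10 estimates positive, against 0.02 for all genes tested, and weights per library called 1 higher. Nrf1, whose core motif was searched above, had 4.56, 5.34 and 4.85 FPKM in ETOH-WT livers, against 4.13, 3.84 and 3.35 FPKM in PF-WT livers, without overlap (log2 fold change 0.31, adjusted p = 0.133). Gabpa, the DNA-binding subunit of GABP, averaged 11.2 ± 0.846 FPKM in ETOH-WT and 11.1 ± 0.123 FPKM in PF-WT livers (SD, n = 3 each), with a log2 fold change of 0.01 and a limma adjusted p of 0.962. Ppargc1a, a coactivator of this program, had a log2 fold change of 0.22 (adjusted p = 0.36).

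Among other mitochondrial genes, Cs, the citrate synthase of the matrix, was the only one called of 14 genes of the outer membrane, import and matrix, whose median log2 fold change was 0.04. Weights per library called 2 of the 14 higher and 2 lower, against 11.7% and 8.33% of all genes tested. Cs fell, with 43.8, 54.9 and 46.4 FPKM in ETOH-WT livers against 71.9, 77.0 and 89.2 FPKM in PF-WT livers (adjusted p = 0.0167 for a log2 fold change of -0.70, standard error 0.12). Of 13 tested chaperone and protease genes with their regulators, Atf5, a transcription factor of the mitochondrial unfolded protein response, rose and 0 fell. The median log2 fold change of the 13 was 0.117, for 7 of them all ETOH-WT livers lay above all PF-WT livers (17.9% among all genes tested), and weights per library called 2 higher. Atf5 had 258, 294 and 272 FPKM in ETOH-WT livers, against 203, 158 and 195 FPKM in PF-WT livers (adjusted p = 0.0296 for a log2 fold change of 0.57, standard error 0.12). When any of the ETOH-WT mice or PF-WT mouse 2 was left out, Atf5 was no longer called (adjusted p between 0.0518 and 0.107), with log2 fold changes of 0.461 to 0.616. Leaving out ETOH-WT mouse 3 ended the calls of Polg2 (adjusted p = 0.0666) and Cs (0.0736), and leaving out PF-WT mouse 2 did the same (0.067 for Polg2 and 0.0685 for Cs).

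The nuclear genes of oxidative phosphorylation, whose products assemble with those made on mitochondrial ribosomes, were found by name in 89 rows, assembly factors with such names included, and 87 were tested. Of these 1 rose and 0 fell, against 3.97% of all genes tested called higher and 2.67% lower. The median log2 fold change was 0.09, with 63 positive and 24 negative estimates. Over all genes tested, 6137 of 11346 estimates were positive. At an unadjusted p under 0.05, 6 had a higher and 2 a lower estimate (14.4% and 9.33% of all genes tested). For 11 all ETOH-WT livers lay above all PF-WT livers, and for 3 all lay below (17.9% and 11.2% of all genes tested). The gene that rose was Cox6b2, a subunit of cytochrome c oxidase, with 4.83, 2.08 and 3.08 FPKM in ETOH-WT livers against 1.12, 1.24 and 0.766 FPKM in PF-WT livers (adjusted p = 0.0338 for a log2 fold change of 1.04, standard error 0.22). This call was lost without any 1 of 5 livers, the exception being ETOH-WT mouse 2, with adjusted p of 0.0518 to 0.106.

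Cytosolic ribosomal proteins gave other values than their mitochondrial counterparts. They were found by name in 89 rows, with rows named as pseudogenes and Rps19bp1, named as a binding protein, included. Of 81 tested, 7 rose and 0 fell, 63 were higher at an unadjusted p under 0.05, and for 69 all ETOH-WT livers lay above all PF-WT livers. Over all genes tested, 3.97% were called higher, 14.4% were higher at an unadjusted p under 0.05 and 17.9% had all ETOH-WT livers above. The median log2 fold change was 0.35, against 0.02 for the mitochondrial ribosomal proteins. Rps28 of the small subunit, for example, had 179, 223 and 177 FPKM in ETOH-WT livers against 130, 122 and 118 FPKM in PF-WT livers (log2 fold change 0.63, adjusted p = 0.0189). Genes called also included Rpl12, which had the largest log2 fold change of the 7, 0.71, and Rpl39 and Rpl35. The number called was unstable, with 1 under median-ratio scaling and 3 under quantile normalization. It was 51 with weights per library, which called 11.7% of all genes tested higher. It was 20, 3 and 0 when ETOH-WT mouse 1, 2 or 3 was left out, and 1 when any PF-WT mouse was. Cytosolic ribosomal proteins have many processed pseudogenes that share reads with them, so their single values are uncertain, and the difference between the lists was not tested.

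**Figure D4:**
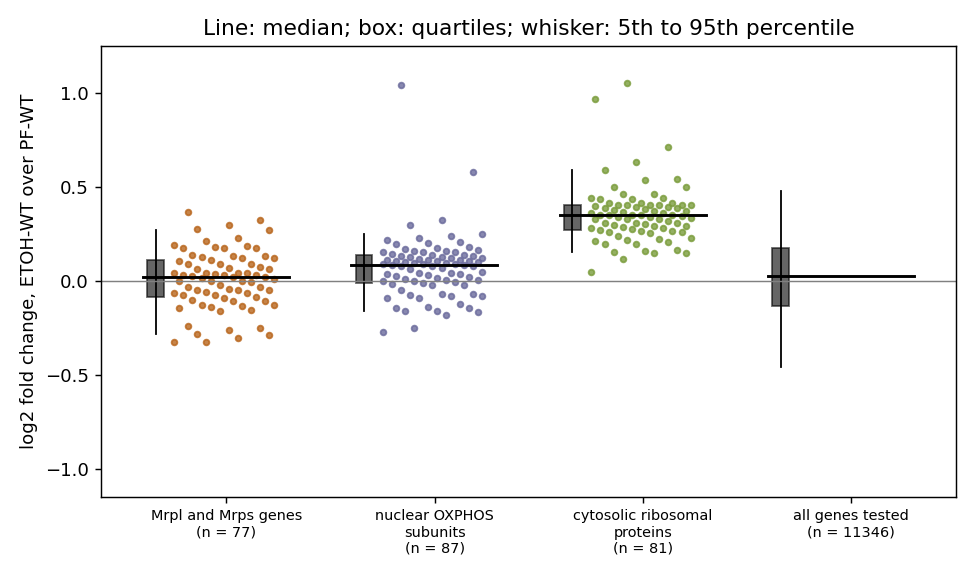
Log2 fold change of ETOH-WT over PF-WT livers (y axis) for the 77 Mrpl and Mrps genes, the nuclear genes of oxidative phosphorylation, the cytosolic ribosomal proteins and all genes tested (x axis). Points are genes (for all genes the summary alone is drawn), the horizontal line is the median, the box the quartiles and the whisker the 5th to 95th percentile. The medians are 0.02, 0.09, 0.35 and 0.02.

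The 77 genes lie on 17 chromosomes, with the highest numbers on chromosome 11 (10 genes) and chromosome 17 (8 genes). For 18 (23.4%), another protein-coding gene starts within 1000 bases upstream on the opposite strand in GENCODE vM21, against 9.79% of the genes of the table. Such neighbours include Sars2, the mitochondrial seryl-transfer RNA synthetase, whose start is 172 bases from that of Mrps12, and Fau, a cytosolic ribosomal protein gene whose start is 59 bases from that of Mrpl49. Mrps12 had a log2 fold change of 0.17 (adjusted p = 0.318) and Sars2 of -0.25 (adjusted p = 0.187), and neither passed the test. The body of 26 genes overlaps that of another protein-coding gene, 4 of them on the same strand (Mrpl53, Mrps24, Mrps34 and Mrps6). No source used here states whether strand was used in counting, so reads in these overlaps could belong to either gene. Named pseudogenes exist for Mrpl23, Mrpl48 and Mrps36, which are among the 13 genes described above, and their values are uncertain to that extent.

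How single livers were weighted mattered for the count of 0. With limma's weights per library, 4 of the 77 genes were called higher (Mrpl23, Mrps21, Mrpl17 and Mrpl10) and 4 lower (Mrpl36, Mrpl27, Mrpl48 and Mrps31), with log2 fold changes of 0.465, 0.28, 0.33, 0.235, -0.23, -0.315, -0.37 and -0.36 in that order. Under these weights 11.7% of all genes tested were called higher, 8.33% lower and 20.0% in either direction, so 8 of 77 genes was a smaller share than that of all genes.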

How the data were processed

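Libraries from the livers of 3 ETOH-WT mice and 3 PF-WT mice were read as 51 bp pairs after 15 PCR cycles. The values deposited by the authors are 1 table of FPKM, 1 column per liver, with 0 further columns of sample values. The unit was judged by its values (not whole, with a different sum in each liver), and the program, gene lengths and scaling behind it were not given in the sources used here. For their own processing the authors' methods give STAR, GRCm38, HTSeq-count and DESeq2. The tools in the submitters' processing notes are HTSeq 1.6.3 and 0.11.2, TopHat2 2.0.11 and cutadapt. As FPKM hold no counts, no counting interval or detection floor was computed, and a scaling that differs between libraries would move all genes of a library together.

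Groups were taken from the sample labels. FPKM were used as deposited, transformed to log2(FPKM + 1), and genes averaging 0.5 FPKM or more were tested with limma 3.58.1 in R 4.3.3 (lmFit, eBayes with a variance trend, a single term for diet, residual degrees of freedom of 4). P-values are two-sided, adjusted over 11346 genes, with a threshold of 0.05. On this scale fold changes of low genes are understated. An exact test of 3 against 3 livers cannot go below 0.1 and was not used. The script was tested on simulated data. Python 3.11.15 with pandas 2.3.3 and numpy 2.4.6 made the summaries. Gene starts in the table count from 0 and were given 1 more, on GRCm38. Promoter windows are RefSeq's (GRCm38.p6) and neighbouring genes GENCODE vM21's. The 13 protein genes of mitochondrial DNA were not analysed here.

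The members and lists were chosen with earlier results of these data known. The genes to be named were every called member, the 5 most and 3 least abundant members, the members whose place departs from their name, up to 3 called genes in each direction of each related list, and Tufm, Lrpprc, Polrmt, Tfam, Ppargc1a, Nrf1, Gabpa and Atf5. Since no member was called, those with an unadjusted p under 0.05 were added after their values were seen. Other genes named as part of a count or as neighbours were also chosen then. The alternatives tried were a pseudocount of 0.1 or 2, a filter at 2 FPKM or none, median-ratio and quantile scaling, weights per library, a term for the replicate number and leaving out each liver.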

Additional observations from a re-analysis of the deposited data

How the results depend on the processing

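Against 0 Mrpl and Mrps genes called higher and 0 lower, limma with weights per library called 4 higher and 4 lower. Leaving out each liver in turn gave 0 to 1 called higher and 0 to 2 called lower, the 1 being Mrpl23 without PF-WT mouse 3 and the 2 being Mrps28 and Mrps31 without ETOH-WT mouse 2. The median log2 fold change of the 77 genes, 0.021, ranged from -0.049 to 0.051 over the fits with a liver left out. The other alternatives, namely both pseudocounts, both filters, both scalings and the replicate block, called 0 members in either direction. Same-numbered mice did not deviate together in expression (correlations across genes of -0.0105, -0.0162 and -0.0341). Such correlations cannot show whether mice of the same number were matched by design. With the replicate block the median stayed at 0.021, while 253 genes of the whole table were called higher and 201 lower, against 450 and 303 without it. Weights per library called 1327 higher and 945 lower, and leaving out a liver 83 to 347 higher and 76 to 300 lower. Median-ratio scaling gave 337 higher and 334 lower, and quantile normalization 386 and 351. Among related genes, the replicate block took the calls of Atf5 (adjusted p = 0.0762) and Cox6b2 (adjusted p = 0.0502). The median of the 77 genes turned negative under median-ratio scaling (-0.012), quantile normalization (-0.025), without ETOH-WT mouse 2 (-0.049) and without PF-WT mouse 2 (-0.002). No named gene followed through the alternatives changed sign. The causes were not tested. Depth was not available, 3 livers per diet limit the precision, and with 1 liver left out a diet rests on 2.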
